A study of Mus musculus with 33 samples.

Results

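The genes described here are 38 components of the TGF-beta, BMP and SMAD pathway, taken by symbol from the 24421 genes counted in each of 33 bulk RNA-seq libraries of sorted mouse macrophages (macs). They comprise ligands, proteins that hold TGF-beta latent, type I and type II receptors, coreceptors, SMADs, SMAD corepressors, SMAD ubiquitin ligases and 1 secreted target. All 38 symbols were found in the count tables. Kupffer cells (KCs), the resident macs of the liver, formed 3 groups of 6 samples: CRE- KCs from Zeb2fl/fl mice, and Tim4+ and Tim4- KCs from Clec4f-crexZeb2fl/fl mice (CRE+). Alveolar macs (AMs), the resident macs of the lung airspaces, formed 3 groups of 5 samples: CRE- AMs from Zeb2fl/fl mice, and CD11b- and CD11b+ AMs from Itgax-crexZeb2fl/fl mice (CRE+). All 6 groups carried the floxed Zeb2 alleles. The mice were on a C57Bl/6 background, of both sexes, 6 to 8 weeks old, with littermates as controls. Clec4f-cre acts in KCs, and in the study's reporter mice it also marked a small share of B cells. Itgax-cre acts in CD11c+ cells, which include cells other than AMs. Sorted CRE+ macs can include cells that kept a Zeb2 allele. The labels do not say which samples came from separate animals, so the p-values below measure the spread between these samples.

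TGF-beta family ligands bind a type II receptor, which activates a type I receptor. The type I receptor phosphorylates receptor SMADs, and these enter the nucleus with SMAD4: SMAD2 and SMAD3 carry TGF-beta and activin signals, and SMAD1, SMAD5 and SMAD9 carry BMP signals. SMAD6 and SMAD7 inhibit the pathway, SMURF ligases mark its components for degradation, and SKI, SKIL and the TGIF proteins are corepressors at SMAD target genes. ZEB2 itself was isolated as a SMAD-binding protein, AMs depend on TGF-beta, and BMPs from liver endothelial cells are a known part of the KC surroundings.

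The promoters of the 3 members with the largest changes among CRE+ groups and of Smad6 are shown for their sequence content. RefSeq promoters (GRCm38.p6, 250 bases before to 50 after the start) were at hand for 28 of the 38 members. Capitals mark a match to GGCGCC, a GC element bound by BMP SMADs, or to GTCTAGAC, the palindrome bound by SMAD3 and SMAD4. CACCTG and its reverse complement CAGGTG, the E-box bound by ZEB factors, were searched as well, while the other motifs read the same on both strands. The window printed runs from 250 bases before the start to 30 bases from it.
Bmpr1a, chr14:34502517-34502796, minus strand: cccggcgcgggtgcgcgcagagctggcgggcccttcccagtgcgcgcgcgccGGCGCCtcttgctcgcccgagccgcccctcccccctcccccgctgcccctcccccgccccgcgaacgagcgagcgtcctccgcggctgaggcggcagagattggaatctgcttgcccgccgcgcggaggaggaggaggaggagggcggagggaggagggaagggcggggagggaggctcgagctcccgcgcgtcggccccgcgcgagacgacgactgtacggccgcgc
Inhba, chr13:16011601-16011880, plus strand: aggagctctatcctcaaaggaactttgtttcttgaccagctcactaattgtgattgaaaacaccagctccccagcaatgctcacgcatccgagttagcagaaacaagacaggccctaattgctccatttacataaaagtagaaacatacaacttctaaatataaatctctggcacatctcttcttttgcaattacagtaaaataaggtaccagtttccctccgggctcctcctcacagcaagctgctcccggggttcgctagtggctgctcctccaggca
Tgfb2, chr1:186705960-186706239, minus strand: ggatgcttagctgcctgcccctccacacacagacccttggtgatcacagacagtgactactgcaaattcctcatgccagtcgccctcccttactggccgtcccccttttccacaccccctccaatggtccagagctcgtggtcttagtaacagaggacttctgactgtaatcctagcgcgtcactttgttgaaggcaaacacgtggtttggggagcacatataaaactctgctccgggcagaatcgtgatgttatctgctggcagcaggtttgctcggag
Smad6, chr9:64022030-64022309, minus strand: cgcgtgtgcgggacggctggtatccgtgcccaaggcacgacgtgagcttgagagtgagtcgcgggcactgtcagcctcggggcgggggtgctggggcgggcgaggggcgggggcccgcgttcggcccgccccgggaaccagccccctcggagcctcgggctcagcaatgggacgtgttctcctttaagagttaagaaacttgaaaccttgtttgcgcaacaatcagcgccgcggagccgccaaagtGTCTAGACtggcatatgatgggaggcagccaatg

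Smad6 was added after its match was seen: its GTCTAGAC began 4 bases before the start, and 0.213% of all 32851 promoters held that palindrome. It was the only one of the 28 matched members with the palindrome. The GGCGCC of Bmpr1a began 198 bases before the start. The 28 matched members had 38 promoters in all. The GGCGCC element was in 11.9% of all promoters and in 10 of these 38, from 9 members. The ZEB E-box was in 20.2% of all promoters and in 5 of these 38, from 5 members (Bmp4, Bmp6, Bmpr1b, Nrros and Smad9). The windows of Bmpr1a, Inhba, Tgfb2 and Smad6 held no E-box. A match is a description of the letters in this window only.

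Libraries held between 9837240 and 24332306 counts on genes. A gene was called changed when edgeR's quasi-likelihood test gave a p under 0.05 after Benjamini-Hochberg adjustment over all genes tested and its log2 fold change was above 1 in size. Levels are given as CPM, which are counts scaled to a library of 1000000 after TMM normalization, and fold changes with their SE on the log2 scale. The Zeb2 gene, on chr2:44983632-45117395, was measured at 229 CPM in the lowest, 282 in the median and 339 in the highest CRE- KC sample. The matching levels were 146, 164 and 211 CPM in Tim4+ KCs, and 149, 169 and 196 CPM in Tim4- KCs. In AMs, Zeb2 ran from 170 to 205 CPM in CRE-, from 84.7 to 114 CPM in CD11b- and from 50.3 to 70.2 CPM in CD11b+ samples. Both CRE+ groups lay below their CRE- group in both tissues, but the gene count includes exons outside the floxed part and does not measure deletion directly. KC markers summed to 9355 CPM or more in every KC sample and to 26.4 CPM or less in every AM sample, while AM markers summed to 18834 CPM or more in AMs and to 535 CPM or less in KCs. The KC markers, which include Timd4, summed to 22347 to 24710 CPM in CRE-, 12787 to 14547 in Tim4+ and 9355 to 10993 in Tim4- KCs. The AM markers summed to 24.1 to 32.9, 156 to 329 and 320 to 535 CPM in the same KC groups. KC replicates 5 and 6 of all 3 groups had no Xist counts and at least 1304 Ddx3y counts each, while the other KC samples and all AM samples had at least 228 Xist counts, so these KC replicates differ from the rest in sex.

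Across the 8 comparisons, 36 members were tested at least once and 21 were called at least once (58.3%, against 39.2% of all 13294 genes tested). Of the 15 tested members never called, 12 passed the adjusted p alone in some comparison with a change of less than 2-fold, and 3 (Acvr2b, Ltbp3 and Smad2) passed in none. Bmpr1b, a type I BMP receptor, had no count in any sample, and the ligand Bmp4 had a group mean of at most 0.159 CPM, so these were the 2 members never tested.

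**Figure D1:**
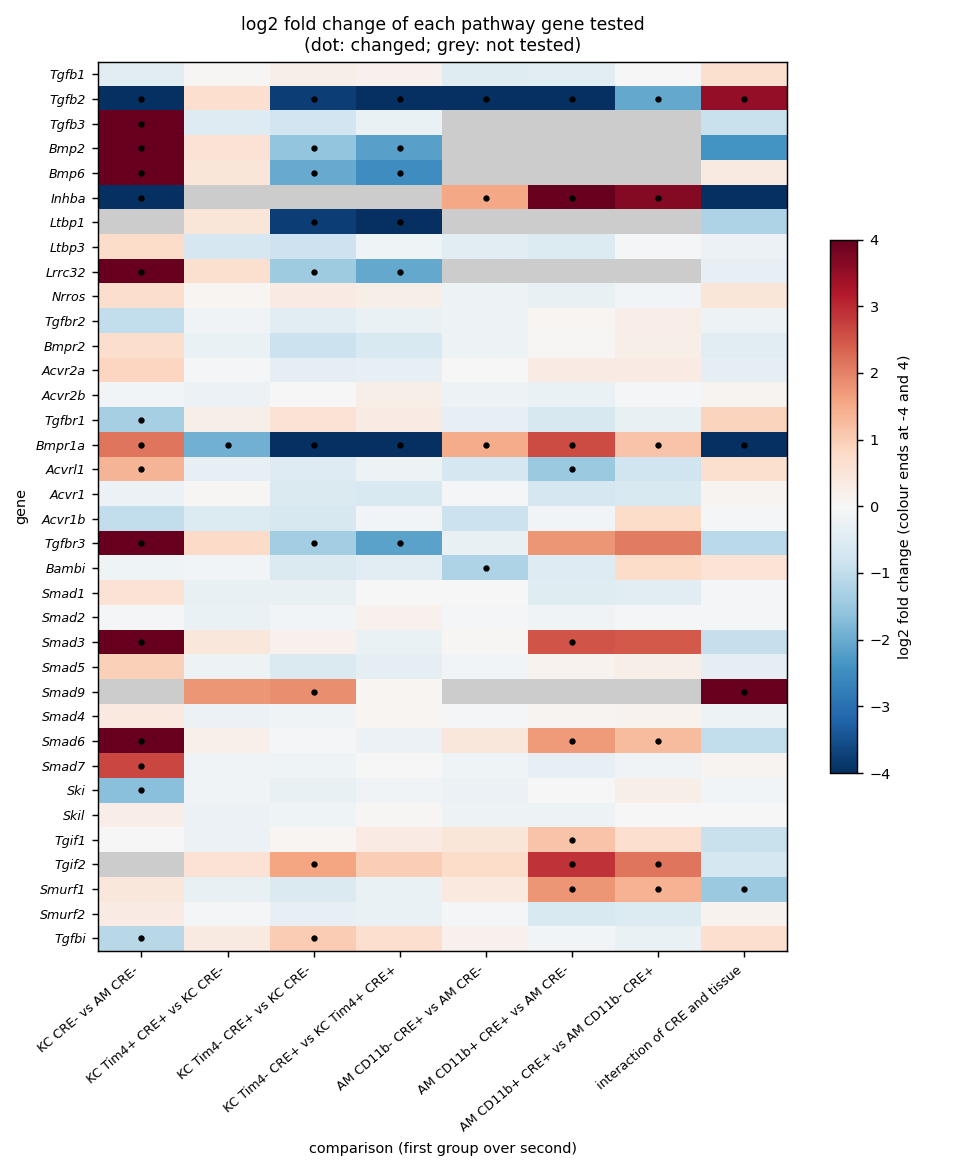
Heatmap of the log2 fold change (colour, ending at -4 and 4) of the 36 members tested, in rows by role, over the 8 comparisons in columns. Black dots mark the members called changed and grey cells those not tested. Bmpr1a has a dot in every column and Tgfb2 in all but the Tim4+ against CRE- KC column.

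Per kilobase of exon, Tgfbr1 and Tgfbr2, the TGF-beta receptors, and Tgfbi, a secreted matrix protein induced by TGF-beta, were among the 6 members with the highest mean level in 5 of the 6 groups, and Tgfbr2 ranked lower only in Tim4+ KCs. In CRE- AMs the levels were 160 ± 14.6 CPM per kilobase for Tgfbi, 102 ± 12.2 for Tgfbr1 and 79.5 ± 2.11 for Tgfbr2 (SD, n = 5). In CRE- KCs the highest level was that of Nrros, which tethers latent TGF-beta on macs, at 115 ± 10.1 CPM per kilobase, followed by Tgfbi at 74.2 ± 11.2 (SD, n = 6).

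CRE- KCs had higher levels of Bmp2, Bmp6, Lrrc32, Smad3 and Smad6 than CRE- AMs, and lower levels of Tgfb2, Inhba and Tgfbr1. Of 33 members tested between them, 10 were called higher in KCs (30.3% of those tested, against 20.9% of all 12145 genes) and 5 lower (15.2% against 12.4%). The median log2 fold change was 0.46 over the members and 0.03 over all genes tested. By adjusted p alone 27 members passed (81.8% against 63.2% of all genes). Levels did not overlap between the CRE- groups for 15 of the 33 members that were higher in every KC sample (45.5%, against 25.4% of all genes tested) and for 8 that were lower (24.2% against 23.3%).

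Among the ligands, Bmp2 was at 31.9 CPM in the lowest, 102 in the median and 197 in the highest CRE- KC sample. In CRE- AMs it was at 0, 0, 0.0915, 0 and 0 CPM, from 2 counts in all. The ratio of the pooled rates was 5523, with an exact 95% interval for counting error of 1529 to 45610, and the fitted log2 fold change of 12.05 ± 0.75 (SE) depends on the few AM counts (adjusted p = 3.35e-09). Bmp6 was called higher in KCs as well (log2 fold change 5.24 ± 0.68), and so was Tgfb3 (4.75 ± 0.80).

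Tgfb2 and Inhba were the 2 ligands called lower in KCs, both at low levels beside Tgfb1, which lay between 206 and 276 CPM in CRE- KCs and between 319 and 331 CPM in CRE- AMs. Tgfb2 was at 4.68, 9.41, 7.41, 12.7 and 11.6 CPM in CRE- AMs and at 0, 0.49 and 1.5 CPM in the lowest, median and highest CRE- KC sample, a log2 fold change of -4.05 ± 0.71 (adjusted p = 0.000169). The groups did not overlap. Inhba, which encodes the subunit of activin A, was at 5.26, 2.92, 3.93, 12.9 and 8.19 CPM in CRE- AMs, while 5 of the 6 CRE- KC samples were at 0 and the highest was at 0.422 CPM (log2 fold change -6.55 ± 0.88, adjusted p = 1.34e-05).

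Lrrc32 presents latent TGF-beta on the cell surface. It was at 7.49, 31.7 and 77.5 CPM in the lowest, median and highest CRE- KC sample, and at 0.223, 0, 0.595, 0.333 and 0 CPM in CRE- AMs (log2 fold change 7.20 ± 0.72, adjusted p = 5.99e-07). Every KC sample lay above every AM sample. The coreceptor Tgfbr3 was at 6.06, 21.2 and 28.1 CPM in KCs and at 1.29, 0, 0, 0.0475 and 0.809 CPM in AMs (5.46 ± 0.75, adjusted p = 1.58e-05). Smad3, the activin and TGF-beta SMAD, was at 4.75, 13.2 and 14.3 CPM in KCs and at 0.312, 0, 0.549, 0.428 and 0 CPM in AMs (5.40 ± 0.61, adjusted p = 2.33e-06).

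Markers of other liver cells were counted in the KC libraries, although KCs had been sorted by flow cytometry, and whether KCs themselves express these genes was not tested. The 9 liver endothelial markers summed to between 698 and 2098 CPM in CRE- KCs and to between 5.42 and 7.45 CPM in CRE- AMs, and the 6 hepatocyte markers measured to between 138 and 336 CPM in KCs and at most 0.354 CPM in AMs. These sums differed between the tissues in the same direction as Bmp2, Bmp6, Lrrc32 and Tgfbr3, and their part in those differences was not tested. In bulk samples, fewer cells of a type and less RNA per cell cannot be told apart.

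Both inhibitory SMADs were called higher in KCs: Smad6 with a log2 fold change of 4.03 ± 0.31 and Smad7 with 2.68 ± 0.13 (SE, edgeR). Smad7 lay between 36.3 and 42.3 CPM in CRE- KCs and between 4.39 and 6.83 CPM in CRE- AMs. Among type I receptors, Bmpr1a, which binds BMPs, and Acvrl1, which binds BMP9 and BMP10, were called higher in KCs (2.14 ± 0.37 and 1.36 ± 0.09). Tgfbr1, the TGF-beta type I receptor, was called lower (-1.32 ± 0.09), as were the corepressor Ski (-1.67 ± 0.07) and Tgfbi (-1.10 ± 0.10). For Smad2, which carries TGF-beta signals as Smad3 does, the log2 fold change was -0.05 ± 0.10 (adjusted p = 0.701).

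In KCs the member that differed most among the 3 groups was Bmpr1a, whose gene spans chr14:34410734-34503341 (GRCm38, minus strand). It was at 24.8 CPM in the lowest, 29.1 in the median and 37.1 in the highest CRE- sample. In Tim4+ KCs the lowest, median and highest levels were 4.19, 6.83 and 15.1 CPM. In Tim4- KCs 4 of the 6 samples had no count and the others were at 0.23 and 0.935 CPM. The 3 groups did not overlap, with CRE- above Tim4+ and Tim4+ above Tim4-. The study lists Bmpr1a among the genes that differ between monocyte-derived and embryonic KCs. It also ties Tim4 on KCs to the time spent in the tissue. The part of cell origin in the Bmpr1a differences was not tested.

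The log2 fold change of Bmpr1a was -1.93 ± 0.44 in Tim4+ against CRE- KCs (SE, adjusted p = 0.00846, edgeR). It was -7.07 ± 0.62 in Tim4- against CRE- KCs (adjusted p = 4.44e-08) and -5.14 ± 0.60 between the CRE+ groups (adjusted p = 1.96e-05). Tim4- KCs had 27 counts of Bmpr1a in all, so the size of these 2 fold changes depends on few counts. Fits without 1 library gave -9.03 to -6.77 against CRE- and -7.10 to -4.84 between the CRE+ groups. The call in Tim4+ against CRE- KCs was lost with DESeq2 (adjusted p = 0.0567) and without KC replicates 5 and 6 (adjusted p = 0.14, log2 fold change -1.80). The difference of mean log2 CPM was alike in both sets of replicates: -1.94 within replicates 1 to 4 and -2.23 within replicates 5 and 6. Levels of Bmpr1a in Tim4+ KCs were 0.156% to 1.11% of the endothelial marker sum, below the 1.46% to 4.44% of CRE- KCs.

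**Figure D2:**
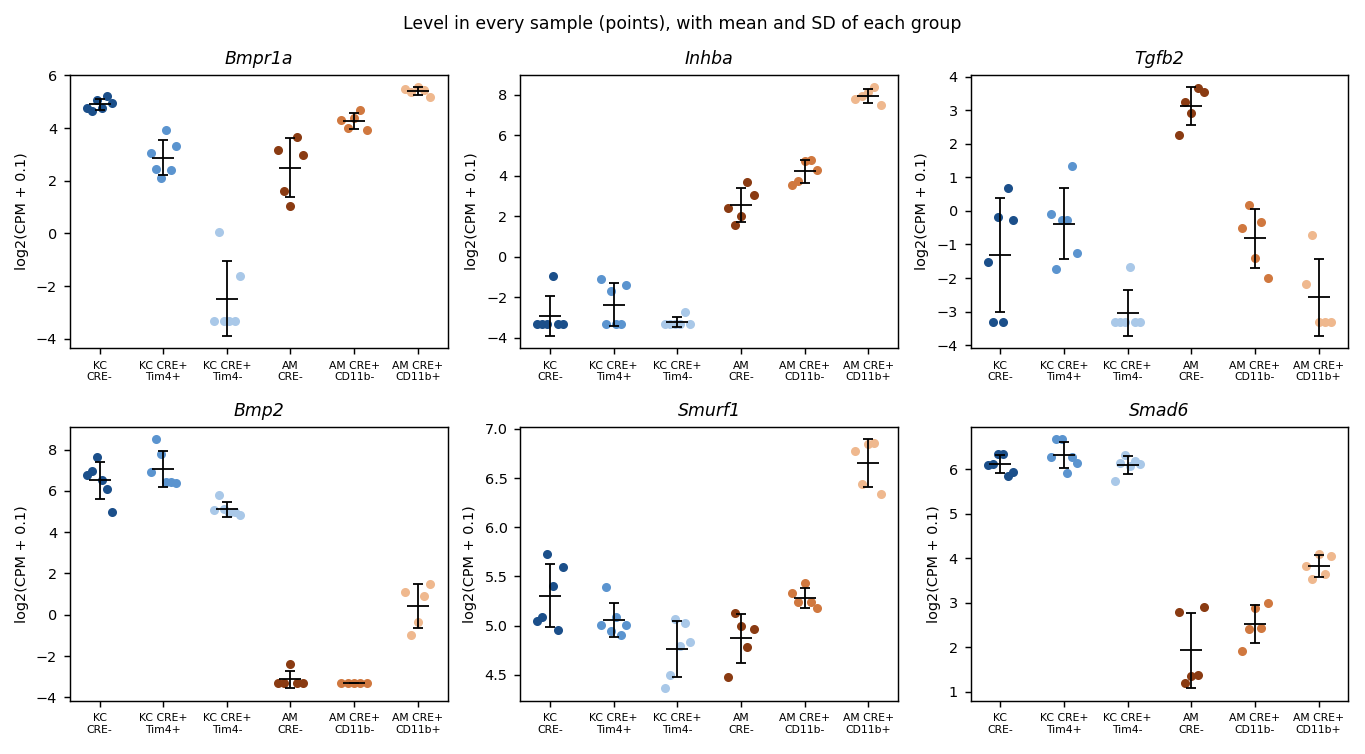
Level in each of the 33 samples as log2(CPM + 0.1), by group, for 6 members. Points are samples, bars are the mean and SD of each group, and the vertical axes differ between panels. Bmpr1a falls through the KC groups, from 24.8 CPM or more to 0.935 CPM or less, and rises through the AM groups, from 12.7 CPM or less to 36.1 CPM or more.

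Tim4+ KCs differed from CRE- KCs in few members. Of 35 tested, 0 were called higher (against 1.94% of all 12500 genes) and 1, Bmpr1a, was called lower (2.86% against 0.376%). By adjusted p alone 2 members passed (5.71% against 6.09%), the other one being Tgfbi with a log2 fold change of 0.35 ± 0.10 (adjusted p = 0.0342). The median log2 fold change was -0.11 over the members and -0.003 over all genes tested. Unadjusted p was under 0.05 for 3 members with a higher and 7 with a lower level, limma-voom called 0 higher and 1 lower, and DESeq2 called 1 higher and 0 lower. Smad9, a BMP SMAD, ran from 0.657 to 2.21 CPM in Tim4+ and from 0.147 to 0.952 CPM in CRE- KCs, and was not called by edgeR (1.77 ± 0.66, adjusted p = 0.139) but was by DESeq2 (adjusted p = 0.0456).

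Tim4- KCs differed in more members, most of them lower. Against CRE- KCs, 3 of 35 were called higher (8.57%, against 3.43% of all genes) and 7 lower (20% against 5.39%). By adjusted p alone 20 members passed (57.1% against 25.4%), 5 higher and 15 lower. The median was -0.37 over the members and -0.03 over all genes tested. Against Tim4+ KCs, 0 were called higher (0.44% of all genes) and 7 lower (20% against 5.01%), with 10 passing by adjusted p alone (28.6% against 11.5%) and medians of -0.24 and 0.01. In this comparison DESeq2 and limma-voom called 0 higher too, and 5 members with a higher level had an unadjusted p under 0.05. The comparisons of Tim4+ and of Tim4- KCs with CRE- KCs share the CRE- samples, and the other comparison shares samples with both.

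The ligands Bmp2 and Bmp6 were lower in Tim4- KCs. Bmp2 was at 31.9, 102 and 197 CPM in the lowest, median and highest CRE- sample, at 82.6, 104 and 363 CPM in Tim4+ and at 28.1, 32.5 and 56.3 CPM in Tim4- KCs. Every Tim4- sample lay below every Tim4+ sample (log2 fold change -2.16 ± 0.39, adjusted p = 0.000899), while 1 CRE- sample lay within the Tim4- range (-1.57 ± 0.39, adjusted p = 0.00506). Between Tim4- and CRE- KCs, the difference of mean log2 CPM of Bmp2 was -1.76 within replicates 1 to 4. Within replicates 5 and 6 it was -0.659. Bmp6, the ligand through which liver endothelial cells regulate hepcidin, was at 10.8, 15.9 and 36.4 CPM in CRE-, 16.8, 24 and 48.3 CPM in Tim4+ and 3.14, 4.98 and 6.46 CPM in Tim4- KCs. Tim4- KCs lay below both other groups (-2.01 ± 0.31 against CRE-, adjusted p = 6.47e-05, and -2.50 ± 0.31 against Tim4+, adjusted p = 3.45e-05).

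The presenting protein Lrrc32 and the coreceptor Tgfbr3 were also lower in Tim4- KCs, while Nrros was higher (0.31 ± 0.08 against CRE- KCs, adjusted p = 0.00526) and Ltbp3 did not pass the test (-0.83 ± 0.49, adjusted p = 0.228). Lrrc32 was at 33, 39.4 and 117 CPM in Tim4+ and at 7.45, 14.1 and 17.6 CPM in Tim4- KCs, with log2 fold changes of -2.05 ± 0.41 against Tim4+ (adjusted p = 0.00211) and -1.41 ± 0.41 against CRE- KCs (adjusted p = 0.0141). Tim4- samples lay below all Tim4+ samples and overlapped the CRE- samples. The difference of mean log2 CPM of Lrrc32 between Tim4- and CRE- KCs was -1.77 within replicates 1 to 4 and 0.0705 within replicates 5 and 6. The coreceptor Tgfbr3 was at 19, 28.1 and 62.8 CPM in Tim4+ and at 3.43, 8.2 and 10.8 CPM in Tim4- KCs, again without overlap (-2.14 ± 0.36, adjusted p = 0.000488).

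Liver endothelial markers moved with these genes. The 9 markers summed to 1196, 1564 and 3471 CPM in the lowest, median and highest Tim4+ sample, to 698, 1354 and 2098 CPM in CRE- and to 396, 485 and 572 CPM in Tim4- KCs, with no marker at 0 in any KC group. As a share of this sum, Bmp2 had a median of 7.19% in CRE-, 7.06% in Tim4+ and 6.92% in Tim4- KCs, with ranges that overlapped (4.57% to 9.39%, 6.16% to 10.4% and 6.34% to 9.84%). The medians were 2.35%, 2.8% and 2.92% for Lrrc32, and 1.51%, 1.67% and 1.75% for Tgfbr3, with overlapping ranges. For Bmp6 the medians were 1.47%, 1.4% and 1.05%, and the Tim4- range of 0.549% to 1.3% lay just below the Tim4+ range of 1.32% to 1.61%. Bmpr1a differed: its median share was 2% in CRE-, 0.453% in Tim4+ and 0% in Tim4- KCs. The part of endothelial cells in each change was not tested.

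**Figure D3:**
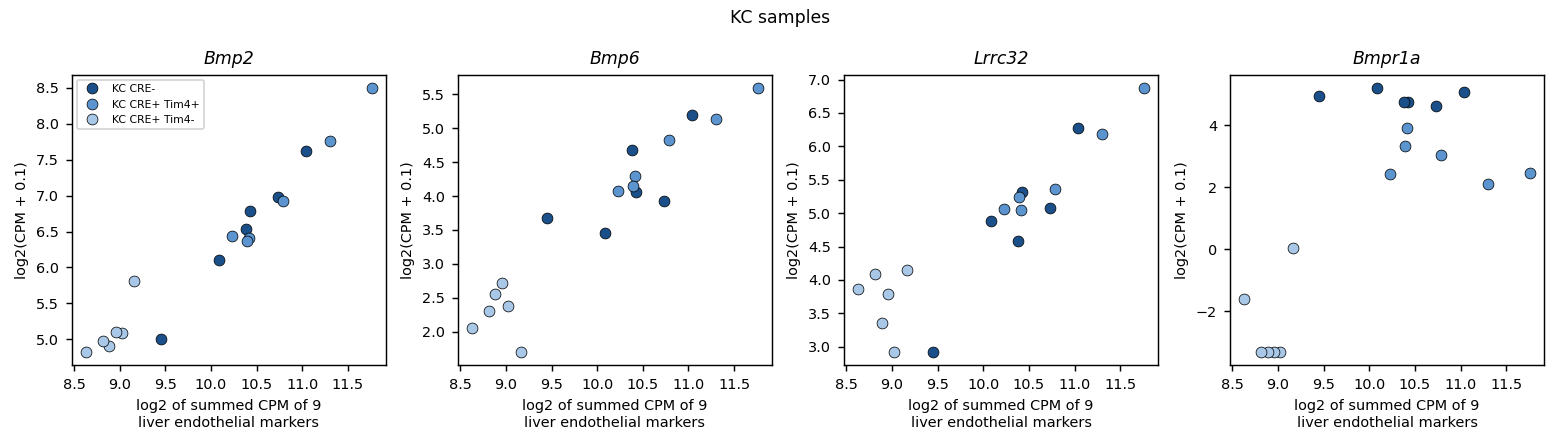
Level of 4 members, as log2(CPM + 0.1), against the log2 of the summed CPM of 9 liver endothelial markers in the 18 KC samples, coloured by group. Bmp2, Bmp6 and Lrrc32 lie along a rising band that runs through all groups, and the lone CRE- sample at the low end has the lowest Bmp2 of its group, 31.9 CPM. Bmpr1a is high in that sample and separates by group.

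Ltbp1 binds latent TGF-beta in the matrix and varied widely within CRE- KCs. It was at 0.098, 0.0436, 3.46, 0.0527, 5.06 and 8.7 CPM in CRE- replicates 1 to 6, so 3 samples lay near 0 and 3 well above. It ran from 0.906 to 6.78 CPM in Tim4+ and from 0 to 0.822 CPM in Tim4- KCs, without overlap between these (-4.23 ± 1.12, adjusted p = 0.0165). Against CRE- KCs the log2 fold change was -3.75 ± 1.11 (adjusted p = 0.0167), and the call was lost without CRE- replicate 6 (-3.02, adjusted p = 0.0511) and without KC replicates 5 and 6 (-1.80, adjusted p = 0.399). The call against Tim4+ KCs was lost without these replicates as well (-3.87, adjusted p = 0.108) and with limma-voom (adjusted p = 0.0838). Tgfb2, at most 0.217 CPM in Tim4- and 2.44 CPM in Tim4+ KCs, was called lower in Tim4- KCs against both groups but stayed low in all KCs.

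Members called higher in Tim4- than in CRE- KCs were Tgfbi, Tgif2 and Smad9. Tgfbi, expressed in every group, lay between 218 and 343 CPM in CRE-, 334 and 386 CPM in Tim4+ and 489 and 722 CPM in Tim4- KCs, and Tim4- samples lay above both other groups (1.01 ± 0.10 against CRE-, adjusted p = 1.83e-07). The corepressor Tgif2 was at 0.264, 0.538 and 1.05 CPM in CRE- and at 0.85, 1.64 and 3.33 CPM in Tim4- KCs (1.57 ± 0.45, adjusted p = 0.014), with overlap. Smad9 was at 0, 1.44 and 2.76 CPM in Tim4- KCs (1.84 ± 0.66, adjusted p = 0.0456), overlapped the CRE- group and lost its call in 8 of 12 fits that left out 1 library, where the adjusted p ran from 0.00546 to 0.105.

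Smaller changes under 2-fold that passed the adjusted p in Tim4- against CRE- KCs were spread over the receptors and SMADs. The BMP type II receptor Bmpr2 lay between 7.32 and 15.4 CPM in Tim4- and between 16 and 25.1 CPM in CRE- KCs, without overlap (-0.85 ± 0.18). Acvr1, Acvrl1 and Tgfbr2 were also lower, and so were Smad1, Smad5, Smurf1 and Smurf2, with log2 fold changes between -0.57 and -0.30. Tgfbr1 was higher (0.57 ± 0.16). The monocyte marker list summed to between 289 and 821 CPM in Tim4- and between 171 and 312 CPM in CRE- KCs, and its part in these differences was not tested.

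In AMs, CD11b- CRE+ cells differed from CRE- AMs in 4 of the 30 members tested: 2 called higher (6.67%, against 3.98% of all 11573 genes) and 2 lower (6.67% against 2.51%). By adjusted p alone 12 members passed (40% against 25.7%). The median log2 fold change was -0.15 over the members and 0.003 over all genes. CD11b+ AMs differed from CRE- AMs in 9 members, 7 higher (23.3% against 9.57%) and 2 lower (6.67% against 5.68%), and 15 passed by adjusted p alone (50% against 43.2%), with medians of -0.11 and -0.005. Between the CRE+ groups, 5 members were called higher in CD11b+ AMs (16.7% against 6.85%) and 1 lower (3.33% against 3.3%), and 16 passed by adjusted p alone (53.3% against 36.4%), with medians of 0.185 and 0.02. The comparisons with CRE- AMs share the CRE- samples, and the other one shares samples with both.

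**Figure D4:**
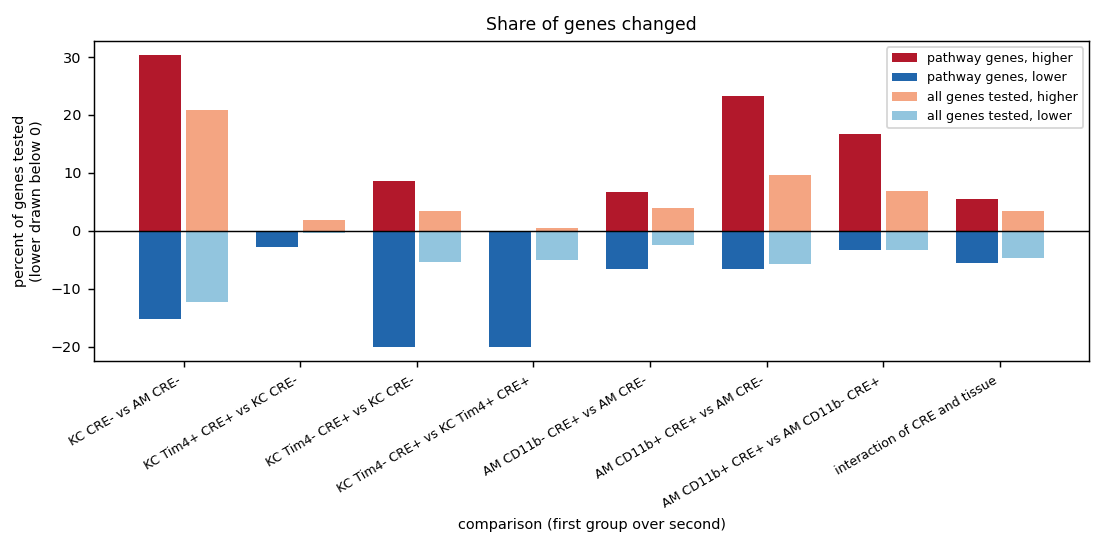
Share of genes called changed in each comparison, in percent of the genes tested, with genes called higher drawn above 0 and genes called lower drawn below. Dark bars are the pathway members and light bars all genes tested. The members' shares called lower in the comparisons of Tim4- KCs are both 20%, against 5.39% and 5.01% of all genes.

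Inhba (chr13:16011851-16031621, plus strand) had the largest rise among the members tested. It was at 5.26, 2.92, 3.93, 12.9 and 8.19 CPM in CRE- AMs and at 11.7, 13.3, 26.4, 27.6 and 19.4 CPM in CD11b- AMs. In CD11b+ AMs it was at 223, 246, 282, 335 and 180 CPM. Every CD11b+ sample lay above all others, while the highest CRE- sample lay within the CD11b- range. The log2 fold change was 1.56 ± 0.32 in CD11b- AMs (adjusted p = 0.00105) and 5.24 ± 0.33 in CD11b+ AMs (adjusted p = 1.24e-10) against CRE- AMs, and 3.68 ± 0.30 between the CRE+ groups (adjusted p = 1.74e-08, edgeR). The ratio of mean CPM in CD11b+ against CRE- AMs was 38.

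Tgfb2 (chr1:186622792-186705989, minus strand) moved the other way. From 4.68 to 12.7 CPM in CRE- AMs it was at 0.608, 1.02, 0.28, 0.693 and 0.148 CPM in CD11b- AMs and at 0.122, 0.507, 0, 0 and 0 CPM in CD11b+ AMs. Both CRE+ groups lay below every CRE- sample and overlapped each other. The log2 fold changes were -4.04 ± 0.60 (adjusted p = 4.68e-05) and -6.09 ± 0.71 (adjusted p = 7.3e-07) against CRE- AMs, and -2.05 ± 0.76 (adjusted p = 0.0405) between the CRE+ groups. Tgfb1, the abundant ligand, was lower in both CRE+ groups by less than 2-fold (-0.48 ± 0.07 and -0.47 ± 0.07), from 319 to 331 CPM in CRE- AMs against 192 to 261 CPM in CD11b- and 210 to 252 CPM in CD11b+ AMs, without overlap.

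Bmpr1a, which fell in CRE+ KCs, rose in CRE+ AMs. It was at 8.87, 2.97, 1.97, 12.7 and 7.89 CPM in CRE-, at 19.9, 15.9, 20.7, 25.5 and 15.2 CPM in CD11b- and at 45.2, 41, 47.1, 44 and 36.1 CPM in CD11b+ AMs. The 3 groups did not overlap. The log2 fold change against CRE- AMs was 1.49 ± 0.32 in CD11b- AMs (adjusted p = 0.00179) and 2.62 ± 0.33 in CD11b+ AMs (adjusted p = 1.7e-06), and 1.13 ± 0.31 between the CRE+ groups (adjusted p = 0.00685). Acvrl1 moved in the opposite direction, from between 69.5 and 90.5 CPM in CRE- AMs to between 42.5 and 56.5 CPM in CD11b- and between 26.1 and 32.5 CPM in CD11b+ AMs, a log2 fold change of -1.48 ± 0.10 in CD11b+ against CRE- AMs (adjusted p = 4.36e-10).

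Of the SMAD regulators, Smurf1, Smad6, Tgif1 and Tgif2 were called higher in CD11b+ than in CRE- AMs. Smurf1, a ubiquitin ligase that acts on BMP SMADs, was at 22.2, 35, 31.9, 27.4 and 31.1 CPM in CRE-, at 40.1, 37.7, 43.1, 37.8 and 36 CPM in CD11b- and at 109, 86.9, 115, 116 and 81.1 CPM in CD11b+ AMs, with no overlap between the groups (1.77 ± 0.12 against CRE-, adjusted p = 3.83e-10, and 1.38 ± 0.12 against CD11b-, adjusted p = 3.69e-08). Its paralog Smurf2 was lower in CD11b+ AMs by less than 2-fold (-0.61 ± 0.12 against CRE- AMs). The inhibitory Smad6 was at 6.87, 2.19, 2.47, 2.52 and 7.43 CPM in CRE-, at 3.65, 5.23, 7.23, 5.31 and 7.88 CPM in CD11b- and at 14, 11.5, 17, 12.4 and 16.5 CPM in CD11b+ AMs. CD11b+ samples lay above the others (1.72 ± 0.32 against CRE-, adjusted p = 0.0002, and 1.27 ± 0.31 against CD11b-, adjusted p = 0.00352), and all AM samples stayed below the 57.5 CPM of the lowest CRE- KC sample. Smad7 lay between 3.35 and 7.6 CPM in all AM samples and was not called in any comparison of AMs.

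The corepressors differed among themselves. Tgif1 rose from between 52.9 and 69.5 CPM in CRE- to between 119 and 153 CPM in CD11b+ AMs (1.15 ± 0.11, adjusted p = 2.79e-08). Tgif2 was at 0.178, 0.146, 0.32, 0.333 and 0.0506 CPM in CRE-, at 0, 0.49, 0.513, 0.289 and 0.444 CPM in CD11b- and at 2.19, 1.12, 1.46, 0.737 and 2.38 CPM in CD11b+ AMs, with CD11b+ above both (2.88 ± 0.70 against CRE-, adjusted p = 0.00229, and 2.14 ± 0.67 against CD11b-, adjusted p = 0.017). For Ski and Skil no AM comparison gave a change above 2-fold.

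Smad3 was at 2.38, 0.913, 1.41, 1.05 and 1.91 CPM in CD11b+ AMs, above the 0 to 0.549 CPM of CRE- and the 0 to 0.808 CPM of CD11b- AMs. Its call against CRE- AMs (2.51 ± 0.98, adjusted p = 0.0456) was lost in 9 of the 10 fits without 1 library (adjusted p between 0.0446 and 0.0981), and against CD11b- AMs the adjusted p was 0.0585. Bambi, a decoy receptor that blocks the pathway, was at 4.28, 3.17, 4.16, 6.6 and 4.91 CPM in CRE- and at 0.963, 2.12, 1.4, 2.6 and 2.71 CPM in CD11b- AMs. These groups did not overlap (-1.24 ± 0.33, adjusted p = 0.00814), and CD11b+ AMs, from 2.19 to 4.52 CPM, overlapped both.

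Bmp2 was too low in AMs to be tested. It was at 2.01, 0.406, 0.677, 1.79 and 2.67 CPM in CD11b+ AMs and had no count in any CD11b- library. Taking 3 counts per library as the limit, which is 0.173 CPM in the library with the fewest counts, the mean of CD11b+ AMs was at least 8.72-fold higher. Pooled over libraries, 134 counts in CD11b+ against 2 in CRE- AMs gave a ratio of 77.3, with an exact 95% interval for counting error of 21 to 645.

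Marker sums differed between the AM groups too. The 7 neutrophil markers measured summed to between 6.58 and 9.7 CPM in CRE-, 716 and 2294 CPM in CD11b- and 7776 and 10088 CPM in CD11b+ AMs. Nearly all of this was S100a8, S100a9 and Cxcr2, while the granule genes Camp and Ngp had means of 0.777 and 3.32 CPM in CD11b+ AMs and no count in CD11b- AMs. The 8 lung epithelial markers summed to between 42.3 and 49.6 CPM in CRE-, 168 and 279 CPM in CD11b- and 538 and 596 CPM in CD11b+ AMs, of which Epcam, a surface protein that the study also used to sort AMs, made 510 CPM in the mean of CD11b+ AMs. The monocyte markers summed to between 598 and 1043 CPM in CRE-, 80.6 and 175 CPM in CD11b- and 348 and 630 CPM in CD11b+ AMs. Most of this was Fn1, which is on that list and is also a TGF-beta target. Fn1 alone lay between 590 and 1035 CPM in CRE-, 65.1 and 164 CPM in CD11b- and 261 and 453 CPM in CD11b+ AMs. The AM markers summed to between 18834 and 29175 CPM in CRE-, 21974 and 31227 CPM in CD11b- and 39780 and 54736 CPM in CD11b+ AMs. The part of other cells in the changes of the members was not tested.

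The change with CRE was then compared between the tissues in a single fit of all 33 samples, as the mean change of both CRE+ KC groups less that of both CRE+ AM groups. Tissue went together with the Cre line and with the marker that split the CRE+ cells, so these cannot be told apart. Sex was uneven too, as only KC replicates 5 and 6 had no Xist counts. Of 36 members tested, 2 had a higher change in KCs (5.56%, against 3.5% of all 13294 genes) and 2 a lower one (5.56% against 4.65%), and 11 passed by adjusted p alone (30.6% against 19.5%). The median of the difference was -0.16 over the members and 0.01 over all genes. The largest was Bmpr1a, with a difference of -6.54 ± 0.57 on the log2 scale (adjusted p = 1.53e-10): it fell in both CRE+ KC groups and rose in both CRE+ AM groups. Smurf1 also had opposite directions, lower in Tim4- KCs and higher in both CRE+ AM groups (-1.50 ± 0.18, adjusted p = 7.16e-08).

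The size of the Bmpr1a difference depends on few counts in Tim4- KCs, and ran from -7.36 to -6.01 in fits without 1 replicate number. The other 2 differences rest on low counts as well. For Smad9 the difference was 4.95 ± 1.16 (adjusted p = 0.00193), but CD11b- and CD11b+ AMs had 1 count each over all libraries, so its fitted change in AMs depends on these counts. For Tgfb2 it was 3.53 ± 1.26 (adjusted p = 0.0454), and the call was lost in 4 of the 6 fits without 1 replicate number, among them the fit without replicate 4 of all groups (1.67, adjusted p = 0.964). Inhba had a difference of -3.99 ± 1.63 (adjusted p = 0.0855), with at most 0.422 CPM in any KC sample.

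Beyond the members, 98 other genes of the family were counted from a list of ligands, receptors, antagonists, activators of latent TGF-beta, SMAD partners and known targets. The SMAD partners on this list include Zeb2, the gene targeted in these mice, so the counts below can include it. Between the CRE- groups 64 of them could be tested, and 27 were called higher in KCs (42.2%, against 20.9% of all genes) and 12 lower (18.8% against 12.4%). In Tim4+ against CRE- KCs, 3 of 66 were higher (4.55% against 1.94%) and 0 lower (0.376% of all genes), and 7 passed by adjusted p alone. In Tim4- against CRE- KCs, 4 were higher (6.06% against 3.43%) and 7 lower (10.6% against 5.39%). In Tim4- against Tim4+ KCs, 1 was higher (1.52% against 0.44%) and 9 lower (13.6% against 5.01%). Eng is on this list and is also one of the liver endothelial markers. Its median share of their sum was 11% in CRE-, 11.8% in Tim4+ and 12.1% in Tim4- KCs. The part of endothelial cells in these KC counts was not tested. Of 59 tested in AMs, 6 were higher (10.2% against 3.98%) and 4 lower (6.78% against 2.51%) in CD11b- than in CRE- AMs. In CD11b+ against CRE- AMs, 12 were higher (20.3% against 9.57%) and 6 lower (10.2% against 5.68%). In CD11b+ against CD11b- AMs, 11 were higher (18.6% against 6.85%) and 2 lower (3.39% against 3.3%). The medians of these 6 comparisons among groups of a tissue lay between -0.25 and 0.43.

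Named from that list by size of change, the ligand Gdf3 was at 2.1 ± 0.904 CPM in CRE-, 6.61 ± 3.24 in Tim4+ and 17.8 ± 3.89 in Tim4- KCs (SD, n = 6), and was called higher in both (1.63 ± 0.32 and 3.06 ± 0.33). The cell cycle inhibitors Cdkn1a and Cdkn2b, both known TGF-beta targets, were called higher in Tim4+ than in CRE- KCs (2.07 ± 0.20 and 1.93 ± 0.42), and the call of Cdkn2b was lost without KC replicates 5 and 6 (2.03, adjusted p = 0.0874). Fn1, fibronectin, was at 10.9, 6.62, 17.2, 6.06, 106 and 102 CPM in CRE- KC replicates 1 to 6, between 16.7 and 202 CPM in Tim4+ and between 5.69 and 20.3 CPM in Tim4- KCs. Its call against CRE- KCs (-2.03 ± 0.70, adjusted p = 0.0392) rested on CRE- replicates 5 and 6: without KC replicates 5 and 6 the log2 fold change was -0.26 (adjusted p = 0.814), and without either CRE- sample alone the call was lost (adjusted p = 0.129 and 0.119). Against Tim4+ KCs Fn1 was called lower (-2.93 ± 0.72, adjusted p = 0.00999). Runx3, a SMAD partner at a mean of 1.88 CPM, was called higher in Tim4- than in CRE- KCs (2.77 ± 0.90, adjusted p = 0.0288), but not in 6 of the fits without 1 library, where the adjusted p reached 0.0709.

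Inhbb and Htra1 were called lower in Tim4- than in Tim4+ KCs (-3.20 ± 0.96 and -2.54 ± 0.65). The call of Inhbb was lost in 5 fits without 1 library, among them the one without Tim4+ replicate 2 (-2.40, adjusted p = 0.133), and both calls were lost without KC replicates 5 and 6 (adjusted p = 0.0991 for Inhbb and 0.0502 for Htra1).

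In AMs, Id2, a BMP target that inhibits helix-loop-helix factors, rose from 85.9 ± 15.2 CPM in CRE- to 388 ± 62.6 in CD11b- and 1053 ± 122 in CD11b+ AMs (SD, n = 5; 2.17 ± 0.12 and 3.60 ± 0.13 against CRE-). Mmp14, a protease that can release latent TGF-beta, rose from 0.508 ± 0.546 CPM to 7.03 ± 3.07 and 104 ± 35.8 CPM (3.78 ± 0.49 and 7.66 ± 0.47). Mmp9 and Thbs1, which also release latent TGF-beta, were at means of 14.7 and 18.7 CPM in CD11b+ AMs and at 0.466 CPM or less in the other AM groups. Fn1 fell from 780 ± 173 CPM in CRE- to 107 ± 37.1 in CD11b- and 326 ± 76.9 CPM in CD11b+ AMs, so that the order of the CRE+ groups was not that of Id2 and Mmp14. The rise of Id2 was not particular to AMs. In KCs it was at 189 ± 15.45 CPM in CRE-, 359 ± 53.2 in Tim4+ and 461 ± 64.5 in Tim4- samples (SD, n = 6). Both CRE+ KC groups lay above every CRE- KC sample. Between the CRE- groups the largest calls were Mmp9 and Inhbb, higher in KCs, and the activin receptor Acvr1c, which had no count in KCs and a mean of 1.74 CPM in CRE- AMs. The change of Mmp14 and of Cyr61 with CRE was lower in KCs than in AMs (-5.28 ± 0.55 and -3.49 ± 0.92), and that of Lefty1 was higher (3.41 ± 0.79), although Lefty1 was at a mean of 0.228 CPM or less in every AM group and was not called with limma-voom (adjusted p = 0.138).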

How the data were processed

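RNA was measured by bulk RNA sequencing in 33 samples of sorted macs, 6 in each KC group and 5 in each AM group. The authors deposited raw counts per gene from HTSeq, 1 table per sample, with reads trimmed by Trimmomatic 0.35, checked by FastQC 0.11.4, aligned by TopHat2 2.1.0 to mm10 and handled by SAMtools 0.1.18, per the labels. The HTSeq version, annotation and strand setting are not given in the sources used here. Reads tallied to no gene or to several (5.88% to 10.1% of each table) were left out of library sizes.

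Counts were normalized by TMM, low genes were removed by filterByExpr, and each comparison was tested by edgeR 4.0.16 (quasi-likelihood, Benjamini-Hochberg adjustment over all genes tested). The KC and AM comparisons used the 18 and 15 samples of their tissue, KC against AM the 11 CRE- samples and the tissue difference all 33. A call needed an adjusted p under 0.05 and a log2 fold change above 1 in size. DESeq2 1.42.0, limma-voom (limma 3.58.1), other scaling, filters and designs, and leaving out each sample in turn were alternatives. The fits were tested on simulated data. The precision of a level rests on 9837240 to 24332306 counts per library, and intervals and limits for low counts cover counting error only. Per-kilobase levels and gene coordinates used GENCODE M21 exons (GRCm38).

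The members, the list of 98 further family genes, the marker lists and the tests were chosen with earlier results of these data known. Named members were those called with at least 1 CPM in the higher group, up to 5 by size per comparison, and up to 3 from the further list. Others were given as ranges. Same-numbered Tim4- and Tim4+ KC samples deviated together (every correlation of the 6 pairs over 0.1, from 0.109 to 0.225), so their numbers may mark pairs. In no other comparison did every pair pass 0.1. The main fits, and the p-values given above for them, did not use these pairs. The replicate number as a block was an alternative, given below.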

Additional observations from a re-analysis of the deposited data

Results flagged for a closer look

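Of 51 checks of a named member in a group with a mean of at least 1 CPM, 2 found a sample standing apart by Dixon's test at 95%, and chance flags about 1 group in 20. Bmp2 in Tim4- KC replicate 2 was at 56.3 CPM, above the other Tim4- samples, which lay between 28.1 and 34.2 CPM. Smurf1 in Tim4+ KC replicate 2 was at 41.9 CPM, above the other Tim4+ samples, which lay between 29.9 and 34 CPM.

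The change with CRE differed between KCs and AMs, which also differ in Cre line and sort marker, by the interaction test for 4 members. The difference, KC less AM on the log2 scale, was 3.53 for Tgfb2, -6.54 for Bmpr1a, 4.95 for Smad9 and -1.50 for Smurf1. Of these, Bmpr1a and Smurf1 kept their calls in each fit that left out 1 replicate number from all groups, with adjusted p at most 5.53e-08 and 1.64e-05.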

How the results depend on the processing

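Without the fold cut-off the members changed rose to 27 (KC CRE- against AM CRE-), 2 (Tim4+ against CRE- KCs), 20 (Tim4- against CRE- KCs), 12, 15 and 16 (CD11b- and CD11b+ against CRE- AMs, and CD11b+ against CD11b-) and 11 (difference between tissues). Asking for at least 10 counts in every sample, which removes members at 0 in a library such as Bmpr1a, left 7, 0, 5 and 4 in the comparison of CRE- groups and the 3 KC comparisons and 2 in the difference between tissues. For Tim4+ against CRE- KCs the count was 0 without KC replicates 5 and 6 and 2 with only these groups in the fit. DESeq2 also called 1 there, but it was Smad9 in place of Bmpr1a. For Tim4- against CRE- KCs limma-voom called 6, and DESeq2 called 7 in the difference between tissues. The other alternatives stayed within 1.5 times.

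Leaving out single samples gave 15 to 17 members between the CRE- groups, 1 to 1, 7 to 10 and 6 to 7 in the KC comparisons as ordered above, 4 to 5, 8 to 10 and 5 to 7 in the AM comparisons and 3 to 5 for the difference between tissues. With the replicate block the counts were 16, 1, 8, 7, 4, 9, 7 and 4 in the same order. The block ended the calls of Tgfb2 in the difference between tissues (3.43) and of Smad9 in Tim4- against CRE- KCs (1.79), and of no other named member. Of 620 refitted values of named members, 581 kept their call, 39 lost it and 0 changed direction. Fits that gave no value for the gene are not among the 620. Asking for at least 10 counts in every sample gave values for only 14 of the 34 named pairs of gene and comparison. The depth limits what can be said of Smad9, Tgif2, Bmp2 in AMs and Inhba in KCs, and of the size of the Bmpr1a difference in Tim4- KCs.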
